A study of Homo sapiens with 15 samples.

Results

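The genes described here are 29 genes of cholesterol and fatty acid synthesis, chosen by name with earlier results of these data known. They were matched by gene symbol in the 4 tables that the authors deposited. Each table compares a group of WI-38 cells with the PD45 control. WI-38 is a line of human fetal lung fibroblasts that divides a limited number of times in culture, and its cells at PD45 are described in the labels as senescent. Of the 29 genes, 23 were in at least 1 table, of 4872 genes in all, and 5 were in 2 tables. The tables are restricted to genes that passed the authors' adjusted p of 0.05 with a change of 1.5-fold or more, up or down, and absence from a table is therefore no sign that a gene stayed level.

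The 15 libraries form 5 groups of 3, and lipo3000, a lipofection reagent, is in the labels of every group. The PD30 control had DMSO and lipo3000 at generation 30. The other groups were at generation 45: GW8510 with lipo3000 and NC, siSRC2 and siSRC4 each with DMSO, lipo3000 and an siRNA to SRC, and the PD45 control with DMSO, lipo3000 and NC. GW8510 is a compound known to inhibit cyclin-dependent kinases, and its dose and duration were not used here; NC is read as a negative-control siRNA. The GW8510 group lacks DMSO and the PD30 control lacks NC, so GW8510 cannot be told apart from missing DMSO, nor passage from NC. Whether the 3 libraries of each group are separate cultures is not in the labels, and p-values here describe library-to-library spread that could be technical alone. Values are the deposited normalized signal per library, of unstated scale (TPM or FPKM), so read depth is unknown and levels are compared within a gene only.

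Cholesterol is built from acetyl-CoA through mevalonate, isoprenoid diphosphates, squalene and lanosterol, each step having its own enzyme. Its genes are known to be switched on together by SREBP-2, the product of SREBF2, when sterols in the endoplasmic reticulum run low, while INSIG proteins hold the SREBPs back when sterols are plentiful. SREBP-1, the product of SREBF1, is known chiefly as the activator of fatty acid synthesis, in which ACLY, ACACA, FASN, SCD and ELOVL6 carry citrate to long monounsaturated chains.

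Transcripts of most sterol synthesis enzymes were lower at PD30 than in the PD45 control. The authors' deposited table listed 17 of the 29 genes (58.6%) as lower at PD30 and 1 (3.45%), SREBF1, as higher, and 11 were not in the table. Over all 18575 genes the authors tested, 7.07% were called lower and 8.24% higher. The 29 genes were chosen with earlier results of these data known, so an excess over such shares is no independent evidence. Of the 18 sterol synthesis enzymes 14 were lower, and of the 7 fatty acid genes 1 was lower. With GW8510 7 genes were listed, 6 of the 29 genes (20.7%) higher and 1 (3.45%) lower, against 4.59% higher and 7.26% lower over 15574 genes tested. With siSRC2 1 of the 29 genes (3.45%) was listed and with siSRC4 2 (6.9%), all lower and all of fatty acid synthesis. ELOVL6 was listed for both siRNAs, and its deposited signals did not carry either call. The background was 1.38% higher and 1.26% lower of 12549 genes with siSRC2. It was 3.91% higher and 4.86% lower of 14598 genes with siSRC4.

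**Figure D1:**
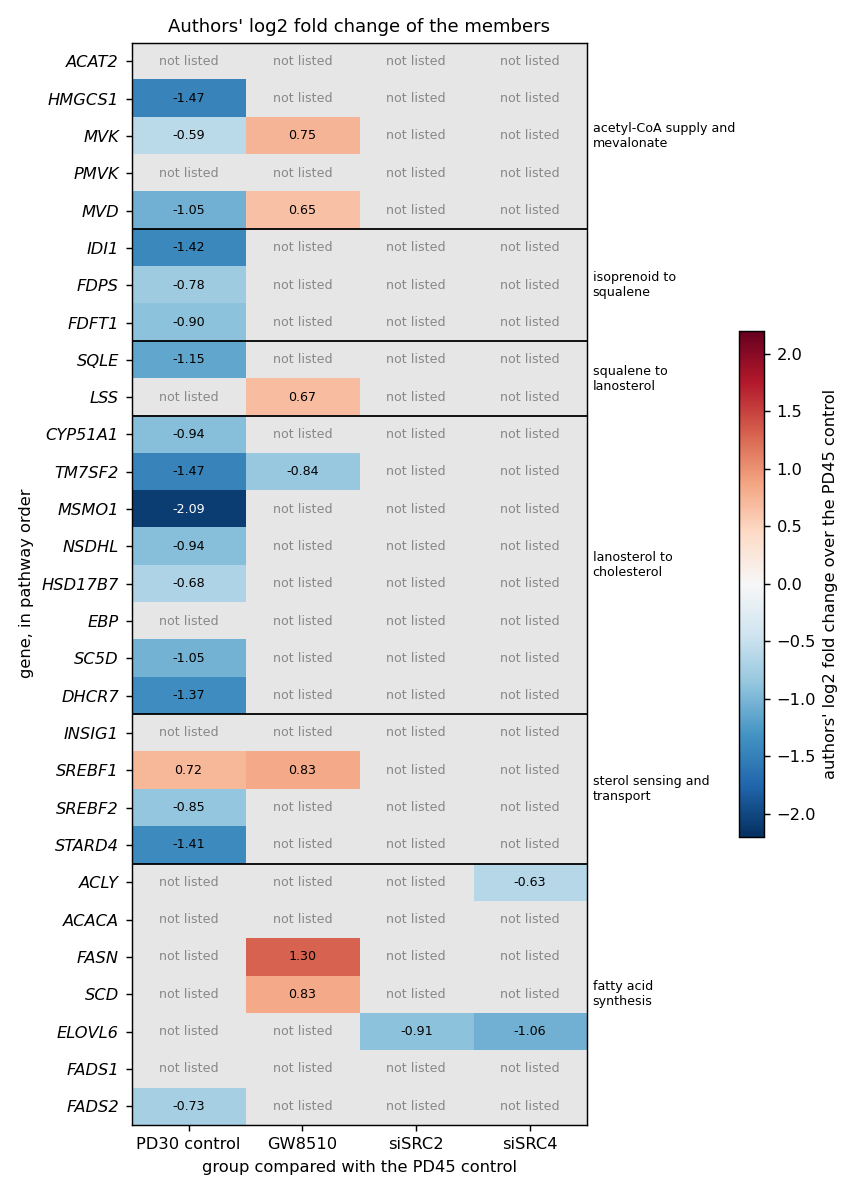
Rows are the 29 genes in pathway order and columns the 4 groups compared with the PD45 control; colour and number give the log2 fold change in the authors' deposited tables, and grey cells are genes not in a table. The PD30 column is negative from HMGCS1 to DHCR7 wherever a gene was listed, MSMO1 being lowest at -2.09, whereas the GW8510 column holds 6 positive values and 1 negative.

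ACAT2, PMVK, EBP, INSIG1, ACACA and FADS1 were in none of the tables. They encode acetyl-CoA acetyltransferase, phosphomevalonate kinase, the sterol isomerase of late cholesterol synthesis, a sterol-dependent inhibitor of SREBP processing, acetyl-CoA carboxylase and the delta-5 desaturase.

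The promoter windows shown are those of the 3 genes with the largest difference at PD30 on the log2(signal + 1) scale. In the authors' fold changes HMGCS1 (-1.47), IDI1 (-1.42) and STARD4 (-1.41) changed more than DHCR7 (-1.37). A stretch of the SREBF2 promoter is shown because it alone among the members with a window held the sterol element searched for. SREBF2 was picked for display after its match was seen. The windows are from RefSeq (GRCh38.p14), written 5′ to 3′ on the strand of the gene, 250 bases before to 50 after the annotated start. Capitals mark CCAAT, the pentamer bound by NF-Y, on either strand (ATTGG on the other strand), and in SREBF2 also the element TCACCCCAC. Between the 2 windows of DHCR7, the choice was made by the number of CCAAT and sterol element matches. The windows lie at chr4:165327419-165327718 on the plus strand for MSMO1, chr11:65111622-65111921 on the plus strand for TM7SF2, chr11:71448344-71448643 on the minus strand for DHCR7 (1 of 2 windows of this gene) and chr22:41832947-41833006 on the plus strand for SREBF2.
MSMO1: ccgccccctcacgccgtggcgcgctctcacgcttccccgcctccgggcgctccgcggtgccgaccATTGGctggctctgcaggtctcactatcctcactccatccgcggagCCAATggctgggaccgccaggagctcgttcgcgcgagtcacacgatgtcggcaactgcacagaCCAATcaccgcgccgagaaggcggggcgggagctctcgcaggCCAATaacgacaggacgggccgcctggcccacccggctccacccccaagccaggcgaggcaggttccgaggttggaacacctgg
TM7SF2: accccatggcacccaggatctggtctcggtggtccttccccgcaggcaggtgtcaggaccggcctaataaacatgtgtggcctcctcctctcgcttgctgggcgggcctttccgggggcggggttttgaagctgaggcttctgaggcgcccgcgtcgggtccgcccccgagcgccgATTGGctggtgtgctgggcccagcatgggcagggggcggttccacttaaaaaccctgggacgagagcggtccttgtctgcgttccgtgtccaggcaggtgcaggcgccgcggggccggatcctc
DHCR7: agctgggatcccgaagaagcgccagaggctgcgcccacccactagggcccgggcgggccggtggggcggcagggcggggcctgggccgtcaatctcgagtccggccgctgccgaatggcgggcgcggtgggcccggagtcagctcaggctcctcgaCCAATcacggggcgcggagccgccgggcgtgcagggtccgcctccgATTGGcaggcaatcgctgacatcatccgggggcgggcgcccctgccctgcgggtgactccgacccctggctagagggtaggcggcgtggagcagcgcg
SREBF2: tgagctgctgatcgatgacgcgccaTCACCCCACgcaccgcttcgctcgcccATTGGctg

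In MSMO1 the pentamer stood at 4 places, starting at -185, -139, -76 and -34 from the start site. The DHCR7 window held it at -94 and -48, TM7SF2 at -74, and SREBF2 at -106 with the sterol element at -133. Windows were found for 25 of the 29 genes, and FASN, ACAT2, FDFT1 and SQLE had none. CCAAT was in at least 1 window of 20 of the 25 genes (80.0%), against 39.7% of all 27305 genes with a window and 42.1% of coding genes. Of the 15 genes lower at PD30 with a window, 14 held it, CYP51A1 being the exception. The GC box GGGCGG, bound by SP1, was in 24 of 25 (96.0%), against 48.3% of all genes and 64.3% of coding genes. The E-box CACGTG was in 3 of 25 (12.0%), against 8.77% of all genes and 10.9% of coding genes. The sterol element core TCACNCCAC was in 1 of 25 (4.0%), against 1.39% of all genes and 1.51% of coding genes. Both strands were searched, and a CCAAT, GC box or E-box match does not overlap the sterol element in SREBF2. These are matches of letters in short windows, with no test. Only the cores as written were sought, so a promoter without a match is not shown to lack a site.

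Early in the pathway, 3 of the 5 genes of acetyl-CoA supply and the mevalonate steps were lower at PD30, as were all 3 genes from isopentenyl diphosphate to squalene (IDI1, FDPS and FDFT1). HMGCS1, the synthase that condenses acetyl-CoA units to HMG-CoA, had signals of 10.6, 16.1 and 11.9 in the PD30 libraries, against 36.8, 28.2 and 24.3 in the PD45 control libraries. The highest PD30 library lay below the lowest control library. Its mean was 43.2% of the control mean, a log2 difference of -1.15 (SE 0.174, limma adjusted p = 0.000174). Adjusted p-values from limma are over listed genes with a mean of at least 1, 2258 at PD30, not over all genes tested. MVK, mevalonate kinase, had 10.3, 9.10 and 9.78 at PD30, against 16.1, 14.4 and 13.7 in the PD45 control, a log2 difference of -0.55 (SE 0.104, limma adjusted p = 0.000709). MVD, the decarboxylase that ends the mevalonate branch, had 46.3, 40.0 and 42.5 at PD30, against 92.3, 75.6 and 85.3 in the PD45 control. In neither gene did the groups overlap. For MVD the PD30 mean was 50.9% of the control mean (log2 difference -0.96, SE 0.0941, limma adjusted p = 1.25e-05).

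IDI1, which isomerizes isopentenyl diphosphate, had 15.9, 17.9 and 15.8 at PD30, against 49.4, 40.9 and 37.8 in the PD45 control. Its mean at PD30 was 38.6% of the control mean (log2 difference -1.31, SE 0.111, limma adjusted p = 4.88e-06). FDPS, farnesyl diphosphate synthase, had closely placed libraries, 151, 157 and 157 at PD30, against 278, 275 and 271 in the PD45 control. The groups stood well apart in both genes. FDPS differed by -0.82 (SE 0.0646, limma adjusted p = 3.28e-06). FDFT1, squalene synthase, had 76.3, 77.6 and 83.9 at PD30, against 165, 152 and 146 in the PD45 control, 51.4% of the control mean (log2 difference -0.95, SE 0.0769, limma adjusted p = 3.86e-06). No PD30 library of FDFT1 reached a control library.

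Of the enzymes that turn squalene into lanosterol, SQLE was lower and LSS, the cyclase, was not in the PD30 table. SQLE, squalene epoxidase, had 20.8, 21.3 and 23.2 at PD30, against 53.5, 47.2 and 43.9 in the PD45 control. The groups did not overlap, and the mean at PD30 was 45.2% of the control mean (log2 difference -1.11, SE 0.0948, limma adjusted p = 5.25e-06).

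Between lanosterol and cholesterol 7 of 8 genes were lower at PD30, and this step held the largest differences on the log2(signal + 1) scale. MSMO1 (ENSG00000052802), the C4-methylsterol oxidase, had 16.6, 18.4 and 17.4 in the PD30 libraries, against 83.9, 74.1 and 66.3 in the PD45 control libraries. Its 3 PD30 libraries lay close together and far under every control library. The mean was 4.28-fold lower (log2 difference -2.03, SE 0.0985, limma adjusted p = 2.39e-07), and the gene was in row 25 of the 2845 rows of the authors' deposited table. TM7SF2 (ENSG00000149809), a sterol C14-reductase, had 6.76, 6.52 and 5.19 at PD30, against 19.7, 13.4 and 21.4 in the PD45 control. Control replicate 2 was the lowest control library of this gene but still near 13, above every PD30 library. The PD30 mean was 33.9% of the control mean (log2 difference -1.40, SE 0.172, limma adjusted p = 4.73e-05). DHCR7 (ENSG00000172893), which makes cholesterol from 7-dehydrocholesterol, had 36.0, 31.2 and 38.2 at PD30, against 96.7, 90.2 and 83.7 in the PD45 control. These groups did not overlap, and the mean was 38.9% of the control mean (log2 difference -1.34, SE 0.0949, limma adjusted p = 1.67e-06).

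SC5D, the sterol C5-desaturase, had 19.8, 21.9 and 20.0 at PD30, against 48.5, 43.4 and 41.4 in the PD45 control (log2 difference -1.07, SE 0.0896, limma adjusted p = 4.57e-06). CYP51A1, lanosterol demethylase, had 20.7, 19.7 and 17.7 at PD30, against 40.6, 34.1 and 35.0 in the PD45 control. Both genes were separated between the groups, CYP51A1 by -0.88 (SE 0.0995, limma adjusted p = 2.8e-05). NSDHL, a dehydrogenase of C4 demethylation, had 22.3, 20.4 and 21.1 at PD30, against 43.8, 40.1 and 38.5 in the PD45 control, 52.1% of the control mean (log2 difference -0.91, SE 0.0841, limma adjusted p = 8.51e-06). HSD17B7, the ketoreductase of the same step, had 3.11, 3.33 and 3.01 at PD30 against 6.50, 4.59 and 4.61 in the PD45 control. The groups of HSD17B7 did not overlap, and its log2 difference was -0.57 (SE 0.147, limma adjusted p = 0.004). HSD17B7 has a near-identical pseudogene, HSD17B7P2, and how the authors' counting divided shared reads is not given in the sources used here, so its value is uncertain.

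The genes of sterol sensing and transport did not move one way. SREBF2 had 26.1, 24.6 and 25.3 in the PD30 libraries, against 51.0, 45.5 and 41.4 in the PD45 control libraries. Every PD30 library was below every control library, and the mean was 55.1% of the control mean (log2 difference -0.83, SE 0.0917, limma adjusted p = 2.44e-05). STARD4, a carrier that moves cholesterol between membranes, had 5.47, 5.08 and 4.52 at PD30, against 12.9, 12.4 and 11.7 in the PD45 control (log2 difference -1.15, SE 0.112, limma adjusted p = 1.19e-05). SREBF1 ran the other way, with 25.7, 22.3 and 23.3 at PD30, against 14.6, 18.8 and 14.7 in the PD45 control. Its groups did not overlap either, and the PD30 mean was 148% of the control mean (log2 difference 0.54, SE 0.115, limma adjusted p = 0.00138).

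FADS2, the delta-6 desaturase of polyunsaturated fatty acids, was the 1 fatty acid gene in the PD30 table. It had 87.9, 76.6 and 87.4 at PD30, against 151, 141 and 122 in the PD45 control. The groups did not overlap, and the log2 difference was -0.70 (SE 0.0968, limma adjusted p = 9.55e-05).

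**Figure D2:**
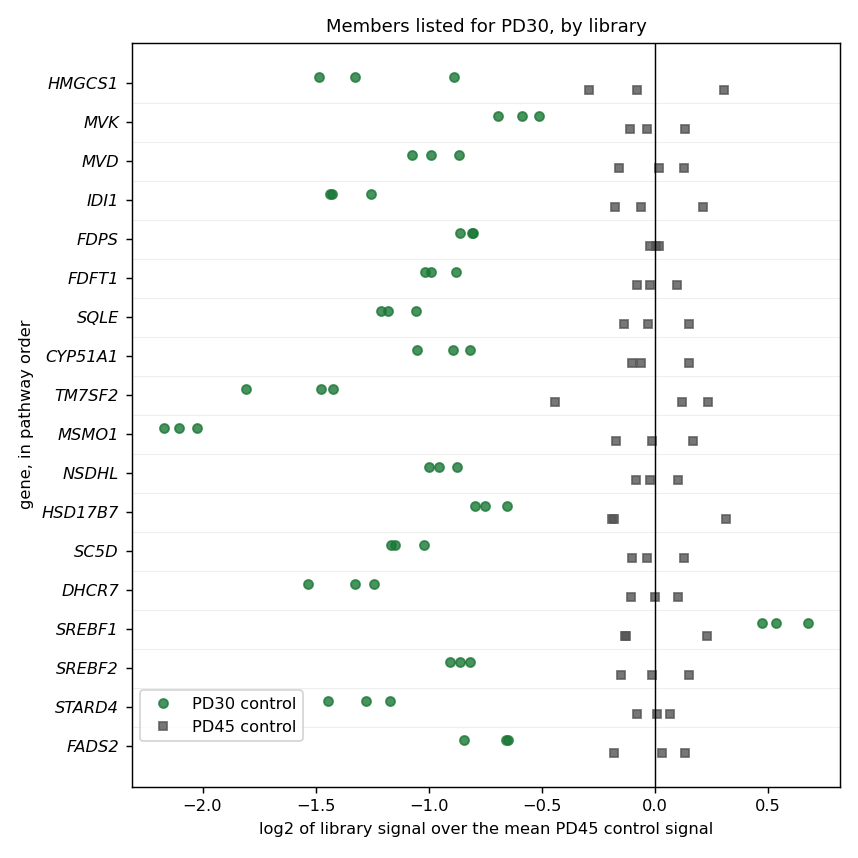
Each row is a gene of the PD30 table and each point a library (3 PD30 control, circles; 3 PD45 control, squares); the horizontal axis is log2 of the library's signal over the mean PD45 control signal. PD30 points lie left of all control points in 17 rows and right of them in SREBF1, and the MSMO1 points lie farthest left.

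All 18 genes of the PD30 table passed the limma re-test and none had overlapping groups, which says little by itself, because genes were in the table for differing. Among all listed genes 97.3% passed the re-test in the authors' direction and 93.6% had groups that did not overlap. The median log2 difference of the 18 genes, SREBF1 included, was -0.95, against -0.75 over genes listed as lower at PD30 with a mean of at least 1. In the authors' fold changes the medians were close, -0.994 for the 18 genes and -0.988 for all genes listed as lower. The smallest two-sided exact permutation p for 3 against 3 libraries is 0.1, so no single gene could pass 0.05 by that test. The PD45 control replicate 1 was the highest control library in 20 of the 23 members in a table (87.0%), against 51.2% of 3950 listed genes. Without that library all 18 members still passed the re-test, with a median log2 difference of -0.90.

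Other sterol and lipid genes at PD30 were split in direction. Over all genes tested there, 8.24% were called higher and 7.07% lower. Of 19 sterol synthesis genes and branches outside the members, 3 were listed as lower and 3 as higher. ERG28, a scaffold of C4 demethylation, and FAXDC2 were among those listed as lower, at ratios of 0.632 and 0.621 of the control. COQ2 of ubiquinone synthesis, CYP27A1, which hydroxylates cholesterol, and LBR, a second sterol C14-reductase that is also a nuclear membrane protein, were listed as higher, COQ2 at a ratio of 2.13. ERG28, FAXDC2, CYP27A1 and LBR are named to account for small counts, after their values were seen.

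Of 37 genes of SREBP control and sterol transport, 6 were listed as higher and 4 as lower at PD30, beside 8.24% and 7.07% of all genes tested. VLDLR, a lipoprotein receptor, had 5.25, 5.17 and 4.62 at PD30, against 0.98, 0.99 and 0.82 in the PD45 control. NR1H3, which encodes the oxysterol receptor LXR alpha, had 21.5, 18.9 and 19.4 at PD30, against 7.96, 7.85 and 8.96 in the PD45 control. TRIB3, a stress-induced pseudokinase, was 2.32-fold higher. In all 3 genes the groups were separate. Of 45 genes of fatty acid synthesis, elongation and lipid assembly outside the members, 4 were listed as higher and 5 as lower. SCD5, a second stearoyl-CoA desaturase, had 14.9, 13.2 and 14.2 at PD30, against 29.3, 32.2 and 29.8 in the PD45 control.

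With GW8510 the listed genes were spread over both pathways: MVK and MVD of the mevalonate branch, the lanosterol cyclase LSS, SREBF1 and the fatty acid enzymes FASN and SCD were higher, and TM7SF2 was lower. FASN (ENSG00000169710), the synthase that builds palmitate, had 89.9, 78.1 and 106 with GW8510, against 46.3, 41.7 and 33.7 in the PD45 control. Every GW8510 library exceeded every control library, by a mean ratio of 2.25 (log2 difference 1.15, SE 0.141, limma adjusted p = 9.9e-05). SCD, stearoyl-CoA desaturase, had 65.6, 67.4 and 87.2 with GW8510, against 51.4, 45.4 and 38.6 in the PD45 control, a ratio of 1.63 (log2 difference 0.69, SE 0.136, limma adjusted p = 0.00104). SREBF1 had 22.8, 23.2 and 31.6 with GW8510, against 14.6, 18.8 and 14.7 in the PD45 control. Replicate 3 of GW8510 was the highest library in all of these genes. SREBF1 differed by 0.65 (SE 0.149, limma adjusted p = 0.00221).

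LSS, the cyclase that forms lanosterol, had 73.1, 68.8 and 79.2 with GW8510, against 50.7, 51.2 and 51.2 in the PD45 control (log2 difference 0.52, SE 0.0904, limma adjusted p = 0.000532). MVK had 20.3, 22.6 and 23.5 with GW8510, against 16.1, 14.4 and 13.7 in the PD45 control (log2 difference 0.56, SE 0.112, limma adjusted p = 0.00107). MVD had 124, 115 and 133 with GW8510, against 92.3, 75.6 and 85.3 in the PD45 control. The groups of these 3 genes did not overlap. MVD differed by 0.55 (SE 0.102, limma adjusted p = 0.000723). TM7SF2 had 11.0, 9.48 and 7.53 with GW8510, against 19.7, 13.4 and 21.4 in the PD45 control, 51.4% of the control mean (log2 difference -0.88, SE 0.182, limma adjusted p = 0.00128). All 3 GW8510 libraries of TM7SF2 were under the lowest control library.

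**Figure D3:**
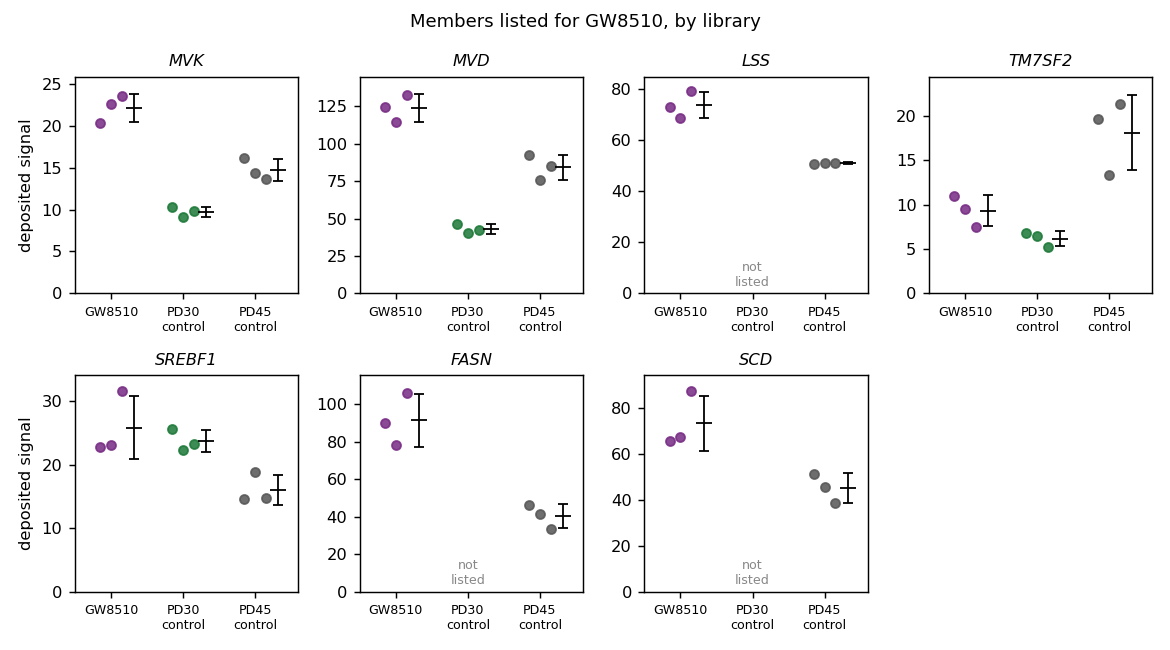
Panels are the 7 genes in the GW8510 table, with the deposited signal of each library on the vertical axis, the groups GW8510, PD30 control and PD45 control along the horizontal axis, and bars for mean and SD (n = 3). GW8510 points lie above all PD45 control points in 6 panels and below them in TM7SF2, and LSS, FASN and SCD have no PD30 values because they were not in that table.

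All 7 genes passed the re-test with no overlap, beside 95.4% and 90.6% of all listed genes. Replicate 3 of GW8510 was the highest library in 6 of the 6 genes that were higher, against 48.9% of 652 listed higher genes, and without it all 7 still passed. The authors' deposited fold changes for GW8510 lay above the signal ratios by a median of 0.12 on the log2 scale over the table. Genes listed as higher with GW8510 also had more GC in their transcripts, a median of 55.1%, than genes listed as lower, 41.6%. The 6 higher members had a median of 60.6% and TM7SF2, which was lower, had 64.2%. Genes listed for siSRC4 had a like gap, 55.4% for higher and 41.0% for lower, and there ACLY had 52.2% and ELOVL6 41.2%. The medians for higher and lower were 47.5% and 51.3% with siSRC2, and 49.5% and 47.9% at PD30. The part of base composition in the values of any group was not tested.

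Beside the members, 3 of 19 further sterol genes were listed as higher with GW8510 and 1 as lower. Over all genes tested, 4.59% were called higher and 7.26% lower with GW8510. EBPL, a relative of EBP, had 54.8, 107 and 93.5 with GW8510, against 45.5, 42.3 and 47.8 in the PD45 control. Its groups did not overlap, although replicate 1 of GW8510 stood well below the other GW8510 libraries. DHDDS of dolichol synthesis was also higher, at a ratio of 1.41. FAXDC2 was lower at a ratio of 0.346. Of 37 genes of SREBP control and transport, 1 was listed as higher and 1 as lower, the lower one being MYLIP, a ubiquitin ligase, at a ratio of 0.499. Of 45 further fatty acid and lipid genes, AACS, SLC25A1 and HACD1 were listed as higher and ACSL5 and DGAT2 as lower, ACSL5 at a ratio of 0.504. DHDDS, MYLIP, AACS, SLC25A1, HACD1 and DGAT2 are named to account for small counts, after their values were seen.

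MVK, MVD, TM7SF2 and SREBF1 were in both the GW8510 and the PD30 table, and the 2 comparisons share the PD45 control. The log2 differences from the PD45 control were 0.56 with GW8510 and -0.55 at PD30 for MVK, and 0.55 with GW8510 and -0.96 at PD30 for MVD. They were -0.88 with GW8510 and -1.40 at PD30 for TM7SF2, and 0.65 with GW8510 and 0.54 at PD30 for SREBF1. GW8510 was therefore compared with PD30 itself, in a limma fit over 527 genes held by both tables, of which 65.1% passed. MVD was higher with GW8510 than at PD30 by 1.51 (SE 0.104, limma adjusted p = 4.33e-08) and MVK by 1.11 (SE 0.111, limma adjusted p = 1.13e-06). For MVD and MVK this outcome was fixed in advance, because the authors listed both as higher with GW8510 and lower at PD30. Their p-values are therefore no independent evidence. TM7SF2 was higher with GW8510 by 0.52 (SE 0.18, limma adjusted p = 0.021). That call was lost without GW8510 replicate 1 (adjusted p = 0.0934), GW8510 replicate 2 (0.0562) or PD30 replicate 3 (0.0878). SREBF1 differed by 0.11 (SE 0.143, limma adjusted p = 0.546), which does not show that its levels are alike.

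The siRNAs were checked by their target. SRC, a non-receptor tyrosine kinase, had 11.6, 10.6 and 11.6 with siSRC2 and 9.51, 11.1 and 11.8 with siSRC4, against 19.0, 20.5 and 19.9 in the PD45 control. Both knockdown groups lay below the control, at 57.0% and 54.6% of its mean. No sterol synthesis enzyme, sensor or carrier among the members was in either siRNA table.

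ACLY, which makes cytosolic acetyl-CoA from citrate and so feeds both pathways, was lower with siSRC4. It had 115, 122 and 129 with siSRC4, against 200.2, 182 and 168 in the PD45 control. The groups did not overlap, and the mean was 66.5% of the control mean (log2 difference -0.58, SE 0.103, limma adjusted p = 0.00117). Among all genes listed for siSRC4, 93.7% passed the re-test and 88.8% had groups that did not overlap. ACLY was not in the siSRC2 table.

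ELOVL6 (ENSG00000170522), which elongates palmitate, was in both siRNA tables, but its deposited signals did not carry the call. It had 3.40, 10.5 and 3.90 with siSRC2 and 4.08, 3.16 and 16.3 with siSRC4, against 8.02, 6.20 and 6.02 in the PD45 control. In each siRNA group 2 libraries were below all control libraries and 1 was above them. In the authors' deposited tables its log2 fold change was -0.91 for siSRC2, and for siSRC4 it was -1.06. From the signals the log2 difference was -0.29 with siSRC2 (limma adjusted p = 0.366; exact permutation p = 0.6, two-sided) and -0.11 with siSRC4 (limma adjusted p = 0.822; exact permutation p = 1.0). The mean siSRC4 signal was 116% of the control mean, opposite to the direction in the authors' deposited table, as in 7 of the 1280 genes listed for siSRC4 (0.547%). Without siSRC2 replicate 2 the difference was -0.73 (limma adjusted p = 0.00334), and without siSRC4 replicate 3 it was -0.74 (limma adjusted p = 0.00398). Leaving out any other library gave no call, with differences between -0.36 and -0.036 for siSRC2 and between -0.17 and 0.28 for siSRC4. Of all genes listed for siSRC2, 95.5% passed the re-test and 90.6% had groups that did not overlap. Between the siRNAs ELOVL6 differed by 0.19, siSRC4 minus siSRC2 (SE 0.506, limma adjusted p = 0.933), in a fit in which 29.7% of 101 shared genes passed.

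**Figure D4:**
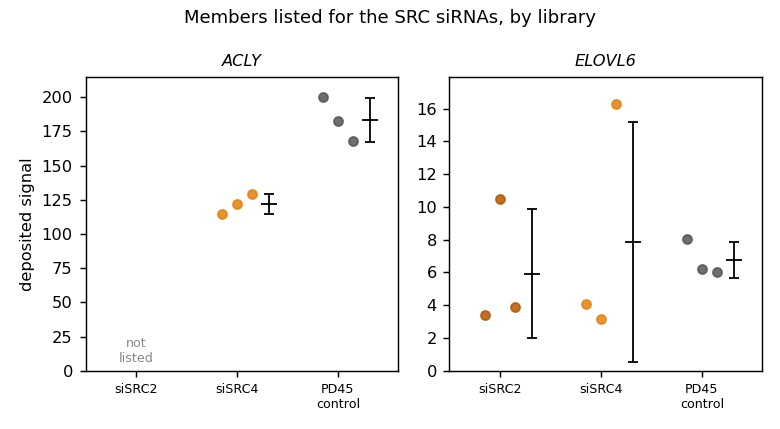
Panels are ACLY and ELOVL6, with the deposited signal of each library on the vertical axis, the groups siSRC2, siSRC4 and PD45 control along the horizontal axis, and bars for mean and SD (n = 3). The siSRC4 points of ACLY lie below all control points, and in ELOVL6 the siSRC2 library at 10.5 and the siSRC4 library at 16.3 stand above the control points.

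In the wider lists the siRNA tables held few genes. Over all genes tested, 1.38% were called higher and 1.26% lower with siSRC2, and 3.91% higher and 4.86% lower with siSRC4. None of 19 further sterol genes was listed with siSRC2, and with siSRC4 LBR and GGPS1, which makes geranylgeranyl diphosphate, were listed as lower. LBR had 2.37, 3.11 and 2.89 with siSRC4, against 7.36, 6.84 and 7.50 in the PD45 control, whereas the libraries of GGPS1 overlapped. Of 37 genes of SREBP control and transport, 2 were listed as higher with siSRC2, among them APOE, an apolipoprotein, at a ratio of 1.66. With siSRC4, ABCA2, STARD5 and TRIB3 were listed as higher and PAQR3 as lower, STARD5 at a ratio of 1.65 and PAQR3 at 0.502. Of 45 fatty acid and lipid genes, none was listed with siSRC2, and with siSRC4 PNPLA3, a lipid droplet acyltransferase and hydrolase, and DGAT2 were listed as higher, PNPLA3 at a ratio of 1.93. ABCA2, TRIB3 and DGAT2 are named to account for small counts, after their values were seen.

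Some markers of cell state and of other cell types were listed in the same comparisons. Over all genes tested, 8.24% were called higher and 7.07% lower at PD30, and 4.59% and 7.26% with GW8510. The shares were 1.38% and 1.26% with siSRC2, and 3.91% and 4.86% with siSRC4. A single gene listed from a short list is not read as a result. At PD30 all 6 markers of dividing cells were listed as higher, at ratios from 1.54 (PCNA) to 7.16 (TOP2A) of the PD45 control. With GW8510 2 of these 6, CCNB1 and MKI67, were listed as higher, although the libraries of MKI67 overlapped (2.37, 0.90 and 1.43 with GW8510, against 1.82, 0.55 and 0.58 in the PD45 control). With siSRC4 1 of the 6, CCNA2, was listed as lower, at a ratio of 0.655. Of 13 fibroblast markers COL3A1, PDGFRA and VIM were listed as higher and S100A4 as lower at PD30, with VIM between 5162 and 5585 at PD30, against 3158 to 3346 in the PD45 control. With GW8510 FN1 and FAP were listed as lower, at ratios of 0.375 and 0.504, and COL3A1 as higher, at a ratio of 1.76. COL3A1 and COL5A1 were listed as higher with siSRC2, at ratios of 1.96 and 1.47, and COL5A1 with siSRC4, at a ratio of 1.5. Of 8 adipocyte markers FABP4 was listed as lower in all 4 tables and PPARG as higher at PD30. Of 7 epithelial markers the keratins KRT8, KRT18 and KRT19 were listed as lower at PD30, at ratios of 0.516, 0.609 and 0.233 of the PD45 control. KRT19 was listed as higher with GW8510 and lower with siSRC2. Of 5 smooth muscle markers ACTA2 and CNN1 were listed as lower at PD30, and of 5 endothelial markers TEK was listed as higher at PD30 and with siSRC2. Of 7 immune markers CD68 was listed as lower with GW8510. The part of these shifts in the values of the lipid genes was not tested, and in bulk RNA fewer cells of a type and less RNA per cell cannot be told apart.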

How the data were processed

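RNA of 15 WI-38 libraries was extracted with Trizol, per the labels' protocols. Per the submitters' processing notes the tools were edgeR, DESeq2, RSEM, StringTie, HISAT2 and CASAVA, with no role given, and the build was GRCm38, a mouse assembly, although the gene identifiers are human. Per the file headers, the deposited signal is a normalized value per library, and the tables add the authors' p-value, adjusted p-value, log2 fold change and linear fold ratio. Where a mean column was titled for another siRNA than its library columns, the library names were followed. The number of genes the authors tested is their adjusted p over their p in the first row, assuming that row has the smallest p.

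Ratios are of mean signals (Python 3.11.15, pandas 2.3.3, numpy 2.4.6, scipy 1.17.1). Genes of each table whose mean reached 1 were re-tested on log2(signal + 1) with limma 3.58.1 (R 4.3.3, mean-variance trend, Benjamini-Hochberg, threshold 0.05) over the 6 libraries of a comparison. Log2 differences are on that scale and understate changes of low signals. Because the authors had already selected these genes, the re-test is no independent evidence. Groups in 2 tables were contrasted in a fit of 9 libraries. The method was also run on simulated data in which many genes did not change. The deposited genes were selected for differing, so that run does not give the rate of false calls here.

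The members and gene lists were chosen with earlier results of these data known. All 29 members are accounted for; of the 3 neighbouring lists, up to 5 genes per table are named, those with the largest absolute difference at a mean of at least 1, and others only to account for small counts; some genes of these lists, including genes this rule would name, are counted but not reported here. Promoters shown are those of the 3 members with the largest difference at PD30 on the log2(signal + 1) scale, plus SREBF2. Alternatives were a pseudocount of 0.1, no filter, no trend, rescaling each treated library by its median gap from the authors' fold changes, stricter authors' thresholds, leaving out each library and a replicate block. Same-numbered libraries of siSRC4 and the PD45 control correlated weakly (0.122, 0.107 and 0.136). No label pairs them, and correlations this small do not settle whether the numbers do. The siSRC4 re-test with the replicate block passed 1 member, as without it.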

Additional observations from a re-analysis of the deposited data

Results flagged for a closer look

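The PD30 and GW8510 comparisons against the shared PD45 control differed for 3 of the 4 members in both tables, by the direct limma contrast of GW8510 minus PD30. The difference was 1.51 for MVD (adjusted p = 4.33e-08), 1.11 for MVK (adjusted p = 1.13e-06) and 0.52 for TM7SF2 (adjusted p = 0.021). Over all genes of that fit, 343 of 527 (65.1%) passed, so 3 of 4 is near the background. The TM7SF2 call was lost without GW8510 replicate 1, GW8510 replicate 2 or PD30 replicate 3, which left 2 members passing. MVD and MVK were higher in 3 of 3 GW8510 libraries than in any PD45 control library, and lower in 3 of 3 PD30 libraries. Both were in the fit because the authors listed them in opposite directions, which fixed this outcome in advance. TM7SF2 was lower than the PD45 control in both groups, and less far with GW8510. No group has more than 3 libraries, so single libraries were not tested as outliers.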

How the results depend on the processing

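Leaving out any 1 library left 18 members passing the re-test at PD30 and 7 with GW8510, as did the other pseudocount, no filter, no trend, rescaling and the replicate block. Same-numbered libraries correlated at -0.112 to 0.0102 for PD30, 0.024 to 0.107 for GW8510 and 0.0883 to 0.218 for siSRC2. Every siSRC2 and siSRC4 library correlated best with its own number, and no PD30 or GW8510 library did. Correlations this weak do not settle whether the numbers pair the libraries of either siRNA. The replicate block gave 18, 7, 0 and 1 members passing in table order (PD30, GW8510, siSRC2, siSRC4), and 3 for GW8510 against PD30, and changed no call. The median log2 difference of the PD30 members was -0.99 from the authors' fold changes and -0.90 to -0.998 leaving out a library; for GW8510 the authors' fold changes gave 0.75 against 0.56. At the authors' fold of at least 2, 9 members were left in the PD30 comparison, 1 with GW8510, 0 with siSRC2 and 1 with siSRC4. The member left with siSRC4 was ELOVL6, whose deposited signals did not carry the call, and ACLY was not left. Leaving out a library gave 0 to 1 members passing for siSRC2 and 1 to 2 for siSRC4. ELOVL6 ranged from -0.73 to -0.036 with siSRC2, from -0.74 to 0.28 with siSRC4 and from -0.45 to 0.62 between siSRC4 and siSRC2, and SREBF1 between GW8510 and PD30 from -0.041, without GW8510 replicate 3, to 0.18. Over named genes and pairs, 150 of 150 values under other settings kept direction and call; leaving out a library, 202 did, 6 reversed, 2 gained and 3 lost the call. The cause was not tested. The other 4 pairs of groups shared no member and were not fitted. The signal's depth is unknown, and genes outside the tables were not used here.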
